A study of Mus musculus with 42 samples.

Results

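The cell cycle and proliferation genes examined here are 36 genes, taken by a list of symbols that used no measured value. Of them, 16 act in the entry into S phase and in DNA replication (called the replication members) and 20 act in G2 and mitosis (called the mitosis members). All 36 symbols matched 1 Ensembl identifier each among the 55573 identifiers of both count tables. They were followed in liver mRNA of 42 male C57B6/J mice, 6 in each of 7 groups, in a study of how glucocorticoid and androgen signalling meet in the liver. In the acute arm the mice received vehicle, corticosterone (CORT, the main glucocorticoid of the mouse), enzalutamide (ENZA, an androgen receptor antagonist) or both (CORT+ENZA). In the chronic arm they received vehicle, CORT or CORT+ENZA, and no chronic group given ENZA alone was analysed here. The labels used here state no age, dose or length of treatment, and the vehicle mice carried no allele or agent that the labels name. The labels treat every library as a mouse of its own.

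Most hepatocytes of an adult liver rest in G0. To divide, a cell raises D-type cyclins, then cyclin E (Ccne1, Ccne2) and the transcription factor E2f1, which turns on the replication genes. Cdc6 and Cdt1 load the Mcm2 to Mcm7 helicase on replication origins, Pcna is the sliding clamp of the polymerases, and Rrm1, Rrm2, Tyms and Tk1 supply deoxynucleotides. The mitosis genes follow later under Foxm1 and the release of the DREAM repressor complex. They include the cyclins A2 and B (Ccna2, Ccnb1, Ccnb2), their kinase Cdk1, the kinases Aurka, Aurkb and Plk1, and the spindle checkpoint proteins Bub1 and Bub1b. Cdc20 and Ube2c, which act with a ubiquitin ligase, and the proliferation marker Mki67 are also among the mitosis genes. In a piece of liver these transcripts come from hepatocytes and from dividing macrophages, endothelial cells and blood cells alike, and in such bulk RNA more dividing cells and more RNA per dividing cell cannot be told apart.

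The promoters of 29 of the 36 genes are in the RefSeq promoter table of build GRCm38.p6. The 250 bases before the start site were searched on both strands for 3 short motifs known from cell cycle promoters. These are TTTGAA (the CHR element that DREAM and Foxm1 complexes contact), CCAAT (bound by NF-Y), and the E2F octamers TTTCCCGC, TTTGGCGC, TTTCGCGC and TTTGCCGC. TTTGAA was found in 6 of the 15 mitosis promoters and 1 of the 14 replication promoters, against 16.3% of all 27025 promoters of the same length. CCAAT was found in 13 of 15 mitosis and 8 of 14 replication promoters against 34.5% of all, and at least 2 copies in 10 and 5 of them against 10.5%. An E2F octamer was found in 1 mitosis promoter and 4 replication promoters against 1.91% of all. Of the members called below, E2f1, Tyms and Birc5 had none of the 3 motifs and are not printed. The 6 promoters printed here are examples, and not all of them belong to members called by edgeR. They are the 150 bases before the start site, 5′ to 3′ along the gene, with coordinates on GRCm38 and with motif matches on either strand in capitals (the 3 motifs above, each also as its reverse complement). In Mcm6, 2 octamer matches overlap.
Top2a, chr11:99024190-99024339 (minus strand): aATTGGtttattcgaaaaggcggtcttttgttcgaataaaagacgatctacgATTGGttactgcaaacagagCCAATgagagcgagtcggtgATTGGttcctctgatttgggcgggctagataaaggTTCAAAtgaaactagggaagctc
Cdk1, chr10:69352913-69353062 (minus strand): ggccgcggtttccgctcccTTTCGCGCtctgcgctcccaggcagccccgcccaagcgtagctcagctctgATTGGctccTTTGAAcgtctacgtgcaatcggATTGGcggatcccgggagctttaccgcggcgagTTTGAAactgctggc
Cdc20, chr4:118437344-118437493 (minus strand): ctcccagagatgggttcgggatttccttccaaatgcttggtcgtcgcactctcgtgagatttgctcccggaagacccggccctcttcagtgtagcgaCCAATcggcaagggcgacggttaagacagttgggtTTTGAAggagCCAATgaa
Mcm5, chr8:75109359-75109508 (plus strand): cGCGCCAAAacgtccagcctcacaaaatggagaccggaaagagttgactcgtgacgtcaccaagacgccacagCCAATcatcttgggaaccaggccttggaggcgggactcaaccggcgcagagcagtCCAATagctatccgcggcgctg
Mcm6, chr1:128359706-128359855 (minus strand): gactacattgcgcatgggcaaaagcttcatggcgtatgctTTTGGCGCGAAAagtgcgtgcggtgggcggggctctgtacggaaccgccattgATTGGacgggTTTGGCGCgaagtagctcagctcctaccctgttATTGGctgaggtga
Rrm2, chr12:24708104-24708253 (plus strand): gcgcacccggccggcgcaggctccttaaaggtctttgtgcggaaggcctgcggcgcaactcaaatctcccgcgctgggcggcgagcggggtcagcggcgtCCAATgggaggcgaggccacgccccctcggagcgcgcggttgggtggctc
The mitosis genes Top2a, Cdk1 and Cdc20 carry TTTGAA close to the start together with CCAAT copies, Mcm5, Mcm6 and Cdk1 pair CCAAT with E2F octamers, and Rrm2 has a single CCAAT. A match describes letters, not a bound site.

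The depth was 18674151 to 20464521 gene counts in the acute arm and 15381724 to 19581723 in the chronic arm. The hepatocyte markers summed to 73496 to 152478 CPM (counts scaled by TMM to a common library size), so the tissue label was matched by its defining markers. CORT+ENZA mouse 18 of the chronic arm stood apart from the other 17 chronic mice in the cell cycle genes, so the chronic counts of members, and the member calls that changed without it, are given both ways. Other chronic values are from all 18 mice unless stated. Cell cycle transcripts were rare. In the 7 groups the median CPM of a replication member ran from 0.0260 (Cdc6, chronic CORT) to 40.9 (Tk1, acute ENZA), and that of a mitosis member from 0 (Cenpf, chronic CORT) to 2.34 (Birc5, acute CORT+ENZA). Per kilobase of exon, the highest medians in the acute vehicle group were those of Pcna (6.94 RPKM), Tk1 (6.12), Mcm7 (2.91) and Rrm2 (2.60). All 20 mitosis members had a median of 0.307 RPKM (Birc5) or less there. The low-count filter kept 15 of 16 replication members in both arms, with Cdc6 left out in each. It kept 17 of 20 mitosis members in the acute arm and 7 of 20 in the chronic arm (Mki67, Top2a, Cdk1, Birc5, Aurka, Bub1b and Kif20a), and the same number without mouse 18. By the rule used here, failing the filter or having every group mean under 1 CPM, 10 members were low in the acute arm and 15 in the chronic arm.

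**Figure D1:**
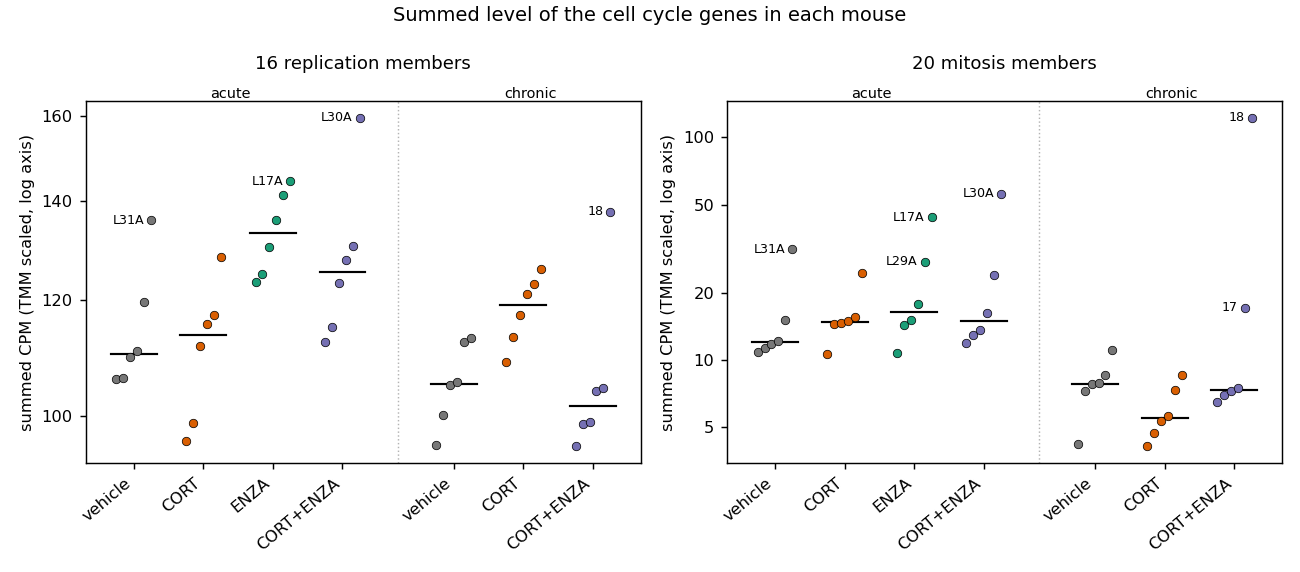
Summed CPM (TMM scaled, log axis) of the 16 replication members (left) and the 20 mitosis members (right) in each of the 42 mice, with 6 points a group and a line at the group median. Chronic CORT+ENZA mouse 18 reaches 122.5 in the mitosis sum against at most 17.2 in the other 17 chronic mice, and the acute mice L30A, L17A, L31A and L29A lead their arm.

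Summed over the 20 mitosis members, the medians of the acute groups were 12.0 CPM in vehicle, 14.8 in CORT, 16.5 in ENZA and 14.9 in CORT+ENZA mice. The ranges were 10.9 to 31.5, 10.7 to 24.6, 10.7 to 43.8 and 12.0 to 55.9, and all 4 groups overlapped. The upper end of every acute group was set by 1 or 2 mice, which were L31A in vehicle, L14A in CORT, L17A and L29A in ENZA and L30A in CORT+ENZA. In the chronic arm the medians were 7.84 CPM in vehicle, 5.50 in CORT and 7.38 in CORT+ENZA mice, with ranges of 4.21 to 11.1, 4.10 to 8.54 and 6.50 to 122.5. Without mouse 18 the highest CORT+ENZA value was 17.2, in mouse 17. RNA was extracted with different kits in both arms, so a difference in level between arms cannot be told apart from the kit.

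The replication sum was steadier. It ran from 106.0 to 135.9 CPM in acute vehicle, 96.2 to 128.4 in CORT, 123.4 to 144.5 in ENZA and 112.3 to 159.5 in CORT+ENZA mice. The lowest ENZA mouse lay above 5 of the 6 vehicle mice and 5 of the 6 CORT mice. In the chronic arm it was 95.6 to 113.0 in vehicle, 108.8 to 125.9 in CORT and 95.4 to 137.7 in CORT+ENZA mice. Without mouse 18 the CORT+ENZA range ended at 104.5, below every CORT mouse. These sums are led by Tk1, Pcna, Rrm2 and Mcm7.

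Acute treatment called few genes of any kind, and few of the cell cycle genes. With CORT, none of the 32 members tested passed an adjusted p of 0.05 (edgeR quasi-likelihood test, Benjamini-Hochberg over all genes), while 1.62% of all 13733 genes did. Of the 32, 2 had an unadjusted p under 0.05, against 14.1% of all genes, and DESeq2 called 1 of them. The nearest was Rrm2, the small subunit of ribonucleotide reductase (chr12:24708241-24714146). It read 4.24 to 13.0 CPM in vehicle mice (median 7.19) and 10.8 to 22.4 in CORT mice (median 13.5). The groups overlapped, because the highest vehicle mouse lay above 3 of the 6 CORT mice. The log2 fold change was 0.86 ± 0.23 (SE, adjusted p = 0.0564 by edgeR), and DESeq2 is the tool that called it. Mcm2 (-0.45 ± 0.19, adjusted p = 0.282) and Tk1 (-0.35 ± 0.18, adjusted p = 0.380) followed. The median log2 fold change of the members was -0.06, against -0.0090 for all genes, and 13 of 32 were above 0. Log2 fold changes were -0.25 ± 0.21 for Ccne1, 0.54 ± 0.30 for Ccne2, -0.26 ± 0.22 for Mcm5, 0.14 ± 0.08 for Pcna, -0.18 ± 0.55 for Mki67, 0.13 ± 0.52 for Top2a and 0.25 ± 0.42 for Cdk1, with adjusted p from 0.426 to 0.943. Ccnb1 failed the filter in both arms.

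With ENZA alone, again none of the 32 members was called by edgeR, against 1.31% of all genes, with 4 at an unadjusted p under 0.05 (14.6% of all genes) and 2 called by DESeq2. Pcna (chr2:132249162-132253314) read 15.8 to 17.9 CPM in vehicle and 18.0 to 22.6 in ENZA mice. No ENZA mouse overlapped a vehicle mouse, but the difference was small, at a log2 fold change of 0.28 ± 0.08 (adjusted p = 0.0764). Mcm5, a subunit of the replicative helicase (chr8:75109569-75128439), read 1.56 to 3.18 CPM in vehicle and 2.53 to 4.6 in ENZA mice, with a log2 fold change of 0.72 ± 0.21 (adjusted p = 0.0917). Both are the members that DESeq2 called. Ccne2 followed, at 0.69 ± 0.29 (adjusted p = 0.279). Of the 32 members, 29 had a fold change above 0, and the median was 0.30 against -0.0019 for all genes. For the 17 mitosis members tested, which were all above 0, the median was 0.42. Members that vary together are not separate cases. Mice L17A (43.8 CPM) and L29A (27.6 CPM) led the mitosis sum of the ENZA group, whose median was 16.5 CPM. The mitosis values rest on large spreads, such as 0.61 ± 0.52 for Mki67 and 0.81 ± 0.50 for Top2a. Also not called were the fold changes of -0.23 ± 0.21 for Ccne1, 0.22 ± 0.19 for Mcm2, 0.34 ± 0.23 for Rrm2 and 0.25 ± 0.42 for Cdk1 (adjusted p from 0.518 to 0.823).

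The acute combination against vehicle also called none of the 32 by edgeR, against 2.47% of all genes, with 7 at an unadjusted p under 0.05 (16.1% of all genes). DESeq2 called 1, Mcm5. By edgeR, Mcm5 had a log2 fold change of 0.75 ± 0.21 (adjusted p = 0.0571), Rrm2 0.70 ± 0.23 (adjusted p = 0.112) and Ccne2 0.84 ± 0.29 (adjusted p = 0.134). Here 29 of 32 lay above 0, with a median of 0.41 against -0.0053 for all genes, and members that vary together are not separate cases. The combination group holds mouse L30A, the highest acute mouse in 16 of the 20 mitosis members. The other members followed throughout were at -0.19 ± 0.21 for Ccne1, 0.16 ± 0.19 for Mcm2, 0.22 ± 0.08 for Pcna, 0.44 ± 0.53 for Mki67, 0.63 ± 0.51 for Top2a and 0.47 ± 0.41 for Cdk1, with adjusted p from 0.153 to 0.743. This comparison and that of ENZA alone share the vehicle mice, so their common direction is no separate evidence.

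Mcm5 was the single member called in the acute arm. It read 1.25 to 2.2 CPM in CORT mice (median 1.63) and 2.5 to 5.71 in CORT+ENZA mice (median 3.06). Every CORT+ENZA mouse lay above every CORT mouse, and mouse L30A at 5.71 was far above the next at 3.14. The log2 fold change was 1.02 ± 0.22 (adjusted p = 0.0462 by edgeR), in a comparison that called 0.175% of all genes. The call was lost when mouse L30A was left out, and in 16 of the other fits that each left out 1 acute mouse, among them each without CORT mouse L14A, L20A, L26A, L2A or L32A. It was also lost in the fit of those 2 groups alone and with the 6 sets of consecutive mouse numbers, each 1 mouse of every group, as a block. Over all these fits the log2 fold change stayed between 0.80 and 1.11. Mcm6 (1.00 ± 0.28, adjusted p = 0.246) and Mcm2 (0.61 ± 0.19, adjusted p = 0.435), other subunits of the same ring, came next. At an adjusted p of 0.999, fold changes were 0.06 ± 0.21 for Ccne1, 0.30 ± 0.28 for Ccne2, 0.08 ± 0.08 for Pcna, -0.16 ± 0.23 for Rrm2, 0.62 ± 0.54 for Mki67, 0.50 ± 0.50 for Top2a and 0.22 ± 0.41 for Cdk1. In all, 31 of 32 members lay above 0, with a median of 0.37 against -0.0025 for all genes. Mouse L30A was the highest acute mouse in 16 of the 20 mitosis and 7 of the 16 replication members. The count above 0 was not made without it, and members that vary together are not separate cases. The summed markers of Kupffer cells, the resident liver macrophages, were 248.4 to 350.0 CPM in CORT and 231.3 to 375.4 in CORT+ENZA mice.

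CORT added to ENZA called none of the 32 members by edgeR or DESeq2, against 1.81% of all genes, and none had an unadjusted p under 0.05 (14.9% of all genes). Tk1 (-0.32 ± 0.18, adjusted p = 0.425), Rrm2 (0.36 ± 0.23, adjusted p = 0.505) and Mcm7 (0.13 ± 0.10, adjusted p = 0.619) had the smallest p. Fold changes of the others followed were 0.04 ± 0.21 for Ccne1, 0.15 ± 0.28 for Ccne2, -0.05 ± 0.19 for Mcm2, 0.03 ± 0.21 for Mcm5, -0.06 ± 0.08 for Pcna, -0.16 ± 0.52 for Mki67, -0.18 ± 0.48 for Top2a and 0.22 ± 0.41 for Cdk1. The interaction of CORT and ENZA called 0% of all genes and no member by either tool, with no member at an unadjusted p under 0.05 (3.65% of all genes). Pcna came nearest, at -0.21 ± 0.11 (adjusted p = 0.994). The interaction terms were 0.29 ± 0.30 for Ccne1, -0.39 ± 0.41 for Ccne2, 0.40 ± 0.27 for Mcm2, 0.30 ± 0.30 for Mcm5, -0.50 ± 0.32 for Rrm2, 0.02 ± 0.74 for Mki67, -0.31 ± 0.71 for Top2a and -0.04 ± 0.58 for Cdk1.

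**Figure D2:**
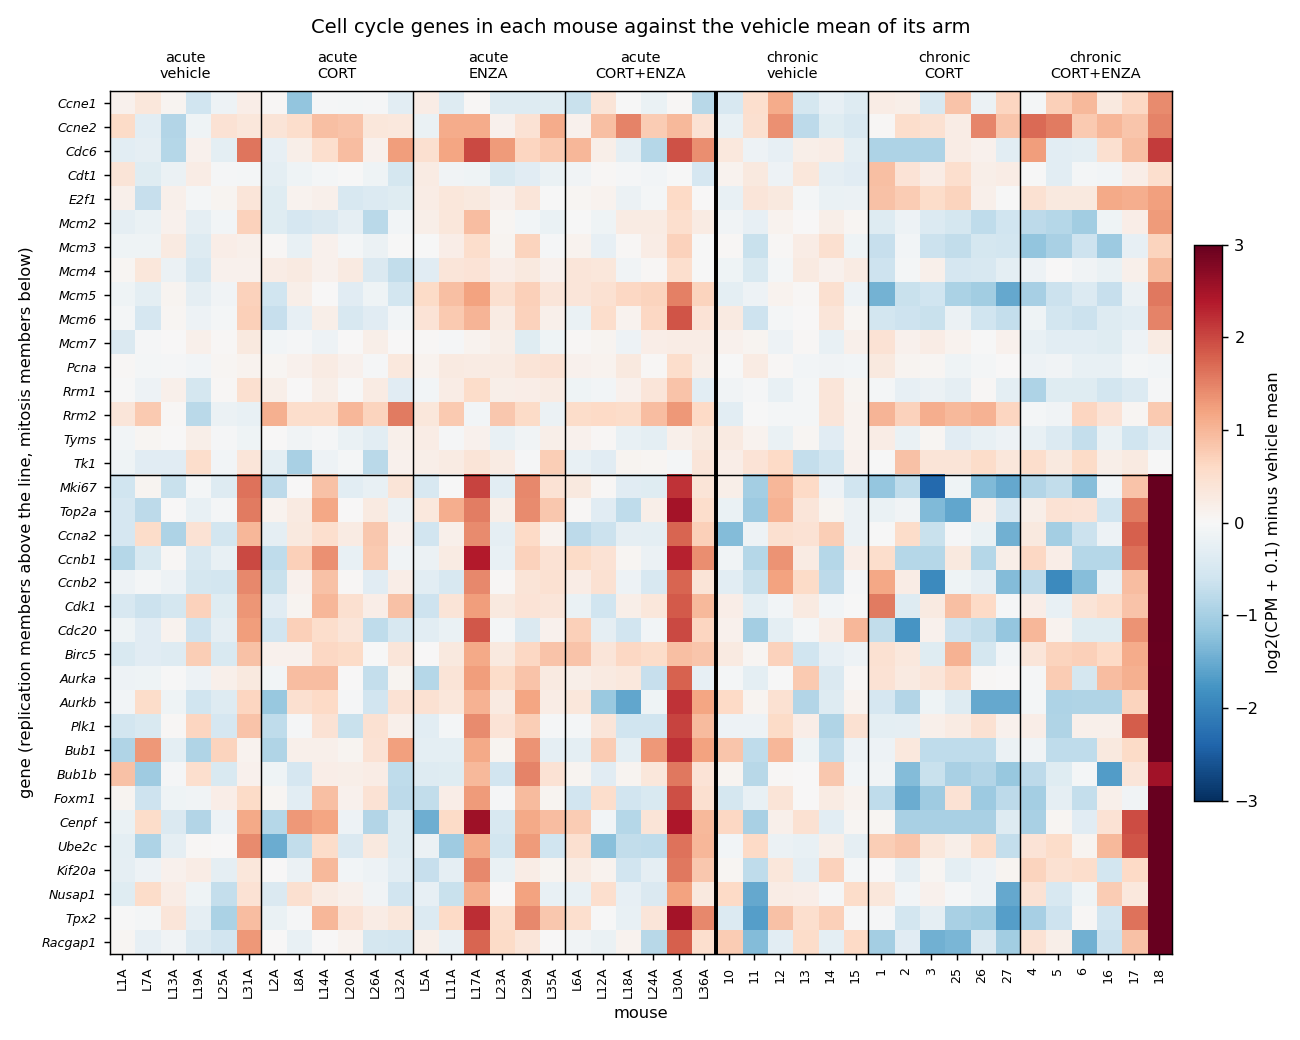
Each of the 36 genes (rows, replication members above the line and mitosis members below) in each of the 42 mice (columns, by group), as log2(CPM + 0.1) minus the mean of the vehicle mice of the same arm; the colour scale ends at 3 either way. Chronic mouse 18 is the highest chronic mouse in all 20 mitosis members, acute mouse L30A is the highest acute mouse in 16 of them, and Rrm2 is red in both CORT groups.

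In the chronic arm, Rrm2 rose with CORT with and without mouse 18. Mcm3, Mcm5, Mcm6 and Mki67 fell in the fit without mouse 18 and were not called in the fit with it. Of the 22 members tested, 1 was called in the fit of all 18 mice, against 18.3% of all 13099 genes (9.04% higher and 9.29% lower). That member was Rrm2. It read 7.99 to 12.9 CPM in vehicle mice (median 9.75) and 15.8 to 21.4 in CORT mice. All 6 CORT mice lay above all 6 vehicle mice. The log2 fold change was 0.91 ± 0.15 (adjusted p = 0.000392 by edgeR), and 0.92 ± 0.13 (adjusted p = 8.51e-05) without mouse 18. The large subunit Rrm1 was at -0.17 ± 0.13 (adjusted p = 0.363), thymidylate synthase Tyms at -0.11 ± 0.13 (adjusted p = 0.591) and thymidine kinase Tk1 at 0.38 ± 0.20 (adjusted p = 0.198).

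Mouse 18 belongs to neither group of this comparison, yet it enters the fit through the shared estimate of spread. Without it, 5 of 22 members were called against 22.1% of all genes, a share near that of all genes. In the fit of only the CORT and vehicle mice 7 of 19 members tested were called against 18.6%. They were those 5 with E2f1 higher (0.54 ± 0.18, adjusted p = 0.0489) and Mcm2 lower (-0.47 ± 0.15, adjusted p = 0.0404). Mcm5 read 1.49 to 2.63 CPM in vehicle mice (median 1.77) and 0.571 to 1.19 in CORT mice (median 0.881). All 6 CORT mice lay below all 6 vehicle mice. The log2 fold change was -1.10 ± 0.40 (adjusted p = 0.0612) with all mice, and without mouse 18 Mcm5 fell by 1.09 ± 0.22 on the log2 scale (adjusted p = 0.0014). Without mouse 18, Mcm6 fell by 0.59 ± 0.16 (adjusted p = 0.0130) and Mcm3 by 0.58 ± 0.20 (adjusted p = 0.0416). Mki67, whose protein coats mitotic chromosomes (chr7:135689784-135716361), fell by 1.41 ± 0.48 (adjusted p = 0.0404). It read 0.414 to 1.96 CPM in vehicle and 0.108 to 0.854 in CORT mice, and these groups overlapped. Mcm2 (-0.48 ± 0.20, adjusted p = 0.0946) and Mcm4 (-0.30 ± 0.16, adjusted p = 0.190) missed the threshold without mouse 18, and Mcm7 lay the other way at 0.18 ± 0.09 (adjusted p = 0.162). Pcna was nearly level, at 0.05 ± 0.08 (adjusted p = 0.707). Both cyclin E genes missed as well, at 0.16 ± 0.34 for Ccne1 (adjusted p = 0.782) and 0.54 ± 0.39 for Ccne2 (adjusted p = 0.340). Of the mitosis genes, Top2a was at -0.71 ± 0.46 (adjusted p = 0.295) and Cdk1 at 0.69 ± 0.31 (adjusted p = 0.122) in the same fit.

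Markers of blood and immune cells moved in the same comparison. All 5 B cell markers tested were called lower with CORT, against 9.29% of all genes called lower. So were 2 of 10 Kupffer cell, 3 of 4 monocyte and the 1 tested T and NK cell marker. Not every marker of these lists leaned lower. Chil3 (monocyte) read 0 to 0.372 CPM in vehicle and 0.271 to 1.11 in CORT mice. Marco (Kupffer cell) read 0.690 to 8.67 CPM in vehicle and 3.74 to 10.8 in CORT mice. The Kupffer cell sum was 143.6 to 451.3 CPM in vehicle and 123.8 to 216.2 in CORT mice, the T and NK cell sum was 4.76 to 6.99 against 1.31 to 2.18, and the B cell sum was 3.86 to 11.1 against 0.210 to 1.69. Their part in the Mcm and Mki67 values was not tested.

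Adding ENZA to chronic CORT lowered Rrm2 and Mcm7, with and without mouse 18, but the Mcm7 call was lost in many refits. Of 22 members, 5 were called with all mice (3 higher and 2 lower), against 11.8% of all genes (6.99% higher and 4.86% lower). Without mouse 18, 2 were called, both lower, against 11.6%. Rrm2 read 9.24 to 17.4 CPM in CORT+ENZA mice (median 11.9), and its highest value there was that of mouse 18. The other 5 mice ended at 15.7, just under the lowest CORT mouse at 15.8. On the log2 scale Rrm2 fell by 0.59 ± 0.15 (adjusted p = 0.0137), and by 0.72 ± 0.14 without mouse 18 (adjusted p = 0.0020). Mcm7 (chr5:138164583-138172422) read 12.0 to 16.4 CPM in CORT mice and 9.33 to 14.4 in CORT+ENZA mice. Again mouse 18 held the highest value, and the other 5 ended at 10.9, below every CORT mouse. Mcm7 fell by 0.35 ± 0.11 (adjusted p = 0.0425), and by 0.46 ± 0.09 without mouse 18 (adjusted p = 0.0029). In the fit of only those 2 groups Rrm2 passed (adjusted p = 0.0271) and Mcm7 did not (adjusted p = 0.0677). Mcm7 was also not called with no low-count filter, and was called in 6 of the 18 fits that each left out 1 mouse. It was lost without CORT mouse 1, 2, 3, 25 or 27, CORT+ENZA mouse 4, 5, 6, 16 or 17, and vehicle mouse 12 or 13. Some exon bases of Mcm7 are shared with other genes on either strand, and whether the counting used strand is not stated here. Mcm5 did not pass in either fit (1.17 ± 0.39, adjusted p = 0.0590, and 0.48 ± 0.23, adjusted p = 0.204).

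The 3 members called higher were mitosis genes, and none of these calls held without mouse 18. Mki67 was at 0.108 to 0.854 CPM in CORT mice and at 0.331 to 14.1 in CORT+ENZA mice, with the second highest at 1.79. Its log2 fold change was 2.91 ± 0.87 (adjusted p = 0.0383), and 1.00 ± 0.50 without mouse 18 (adjusted p = 0.216). Top2a, the topoisomerase that untangles sister chromatids (chr11:98992943-99024189), was at 0.122 to 0.636 CPM and 0.331 to 10.8, with the second highest at 1.84. Its log2 fold change was 2.71 ± 0.76 (adjusted p = 0.0277), and 1.19 ± 0.46 without mouse 18 (adjusted p = 0.0996). Kif20a, a kinesin of the late mitotic spindle, went from 1.75 ± 0.56 (adjusted p = 0.0496) to 0.52 ± 0.27 (adjusted p = 0.232), and 29.3% of its exon bases are shared with Cdc23 on the other strand. Over the 7 mitosis members tested the median fold change went from 1.74 to 0.52 on the log2 scale. Cdk1 was not called, at 1.06 ± 0.58 with all mice and -0.28 ± 0.31 without mouse 18. Nor were Mcm2 (0.51 ± 0.32 and 0.01 ± 0.21), Pcna (-0.19 ± 0.08 and -0.21 ± 0.08), Ccne1 (0.50 ± 0.34 and 0.30 ± 0.34) and Ccne2 (0.63 ± 0.35 and 0.57 ± 0.37).

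Cell type markers differed between these groups too. The hepatocyte sum was 106304 to 140843 CPM in CORT and 73496 to 91708 in CORT+ENZA mice, without overlap. Most of it was Alb (65178.7 to 103731 against 41387 to 63426.5 CPM). Ttr, Fgb and Hnf4a were also lower without overlap, while the other markers of that list, such as Apoa1 and Cps1, overlapped. The monocyte sum was 25.1 to 33.9 against 39.5 to 140.9 (62.2 at most without mouse 18), also without overlap. The Kupffer cell sum was 123.8 to 216.2 against 178.3 to 785.6. Their part in the member values was not tested.

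The chronic combination against vehicle called 6 of 22 members with all mice (4 higher and 2 lower) against 18.6% of all genes (10.3% higher and 8.29% lower). Without mouse 18 it called 6 again (2 higher and 4 lower) against 22.3%. The hepatocyte sum was 115289 to 140187 CPM in vehicle and 73496 to 91708 in CORT+ENZA mice, without overlap. Most of it was Alb (75316 to 90744.8 against 41387 to 63426.5 CPM). Ttr and Fgb were also lower without overlap, while the other markers of that list, such as Apoa1 and Cps1, overlapped. The B cell sum was 3.86 to 11.1 against 0.933 to 3.67, also without overlap. The T and NK cell sum was 4.76 to 6.99 against 1.16 to 2.91 without mouse 18, which read 7.83. The part of these cells in the member values was not tested. E2f1, the transcription factor that drives S phase genes (chr2:154559407-154569892), read 2.51 to 3.86 CPM in vehicle mice (median 2.73) and 3.64 to 7.12 in CORT+ENZA mice (median 5.27). CORT+ENZA mice 4, 5 and 6 read 4.08, 3.64 and 3.64 CPM, close to the highest vehicle mouse, and mice 16, 17 and 18 read 6.68, 6.46 and 7.12, above all vehicle and CORT mice. On the log2 scale E2f1 rose by 0.81 ± 0.21 (adjusted p = 0.0097), and by 0.71 ± 0.21 without mouse 18 (adjusted p = 0.0199). Ccne2 (chr4:11191351-11204779) read 0.286 to 1.61 CPM in vehicle mice (median 0.446) and 1.05 to 2.04 in CORT+ENZA mice (median 1.48). Ccne2 rose by 1.17 ± 0.37 (adjusted p = 0.0332), and by 1.12 ± 0.39 without mouse 18 (adjusted p = 0.0439). In the fit of only those 2 groups the Ccne2 call was lost (adjusted p = 0.0505), as it was without CORT+ENZA mouse 4 or 5 or vehicle mouse 10, 13, 14 or 15. Ccne1 was at 0.65 ± 0.35 (adjusted p = 0.207). Of the Ccne2 exon bases, 17.4% are shared with Ints8 on the other strand.

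Of the nucleotide enzymes, Rrm1 and Tyms fell, and Rrm2 and Tk1 were not called. Rrm1 read 8.32 to 12.5 CPM in vehicle and 5.13 to 9.59 in CORT+ENZA mice, and without mouse 18 the upper end was 7.60, below every vehicle and every CORT mouse. Rrm1 fell by 0.43 ± 0.13 (adjusted p = 0.0217), and by 0.52 ± 0.12 without mouse 18 (adjusted p = 0.0036). Tyms, which makes thymidylate, fell by 0.41 ± 0.13 (adjusted p = 0.0297), and by 0.43 ± 0.14 without mouse 18 (adjusted p = 0.0309). The Rrm1 call was lost without vehicle mouse 14, and the Tyms call with no low-count filter and without CORT+ENZA mouse 5, 6 or 17 or vehicle mouse 10, 13 or 15. Without mouse 18, Mcm3 fell by 0.85 ± 0.21 (adjusted p = 0.0066) and Mcm7 by 0.28 ± 0.09 (adjusted p = 0.0390). Rrm2 was at 0.32 ± 0.15 (adjusted p = 0.162) and Tk1 at 0.24 ± 0.20 (adjusted p = 0.444). Birc5, the survivin subunit of the chromosomal passenger complex, and the spindle kinase Aurka were called with all mice and not without mouse 18. Birc5 went from 1.47 ± 0.46 (adjusted p = 0.0302) to 0.73 ± 0.31 (adjusted p = 0.0999), and Aurka from 1.76 ± 0.59 (adjusted p = 0.0439) to 0.60 ± 0.35 (adjusted p = 0.232), when mouse 18 was left out. Members called in neither fit included, with all mice and without mouse 18, Mki67 at 1.5 ± 0.79 and -0.40 ± 0.46, Top2a at 1.99 ± 0.72 and 0.48 ± 0.43, Cdk1 at 1.74 ± 0.62 and 0.42 ± 0.33, Mcm2 at 0.02 ± 0.31 and -0.47 ± 0.21, Mcm5 at 0.08 ± 0.37 and -0.61 ± 0.22, and Pcna at -0.15 ± 0.08 and -0.16 ± 0.08.

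**Figure D3:**
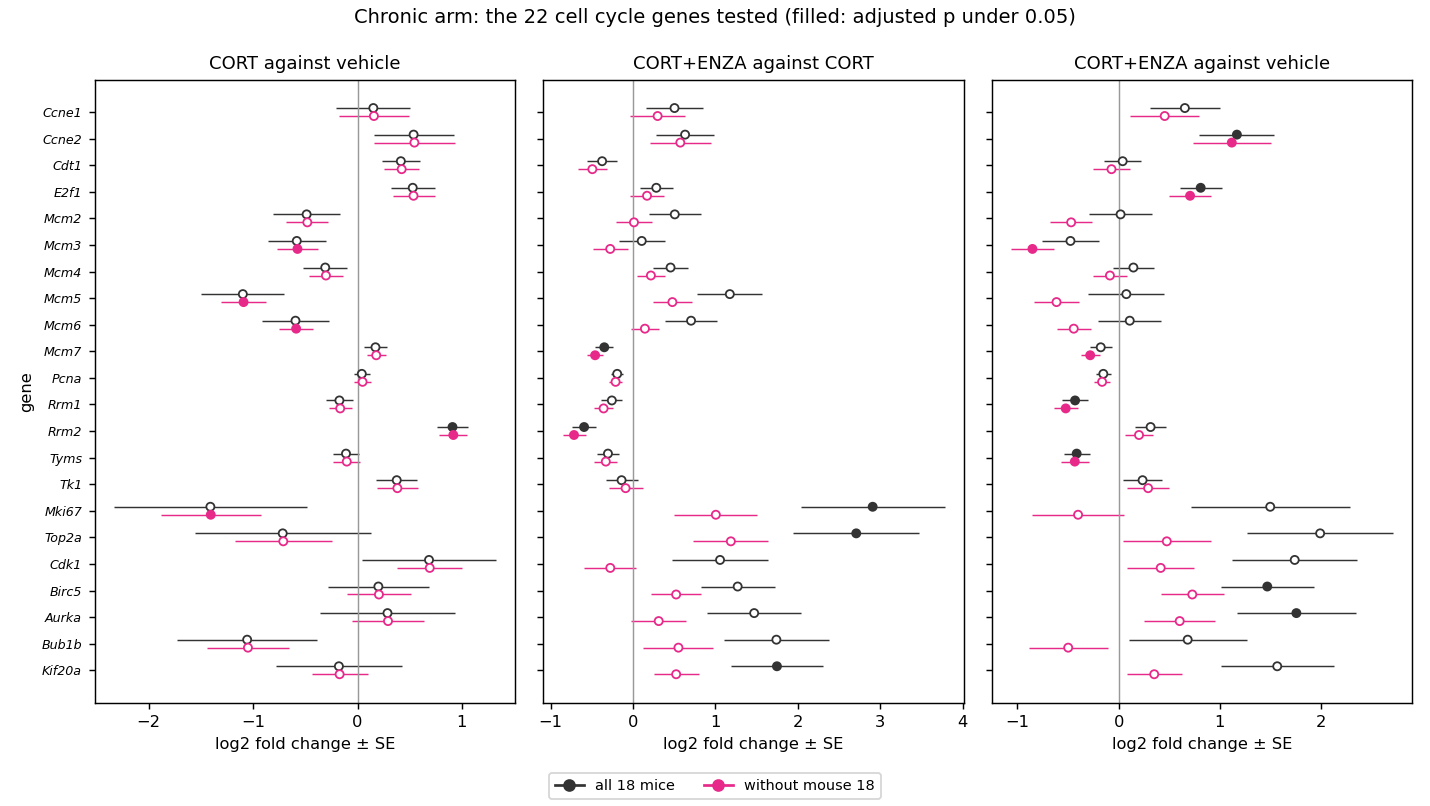
Log2 fold change ± SE of the 22 genes tested in the 3 chronic comparisons, with all 18 mice (grey) and without mouse 18 (pink); filled points have an adjusted p under 0.05. The mitosis genes at the bottom move towards 0 in both CORT+ENZA comparisons without mouse 18, and the Mcm3, Mcm5 and Mcm6 errors narrow.

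Mouse 18 was the highest of the 18 chronic mice in all 20 mitosis members and in 8 of 16 replication members. Its raw counts were 258 for Mki67 against 2 to 35 in the other 17 mice, 197 for Top2a against 2 to 36, 174 for Cdk1 against 8 to 43, and 120 for Ccnb1 against 0 to 9. Its mitosis sum was 16.8 times the median of the other 17 mice, while its replication sum was 1.31 times that median. Within the helicase, Mcm2, Mcm3, Mcm4, Mcm5 and Mcm6 were highest in mouse 18, and Pcna, Tk1 and Tyms were not. Its B cell and erythroid marker sums were inside the range of the others, at 3.67 against 0.210 to 11.1 CPM and 74.6 against 67.9 to 214.0. It had the highest Kupffer cell sum (785.6 CPM against 123.8 to 451.3), monocyte sum (140.9 against 25.1 to 83.7), stellate cell sum (549.9 against 189.5 to 345.5), cholangiocyte sum (108.0 against 47.3 to 103.2) and T and NK cell sum (7.83 against 1.16 to 6.99). All 10 Kupffer cell and all 5 monocyte markers were highest in this mouse. So were 6 of 8 stellate cell, 5 of 9 T and NK cell and 2 of 6 cholangiocyte markers. Cdh1 alone made up 76.7 CPM of its cholangiocyte sum. Gata1 of the erythroblast list was at 0 in all 18 chronic mice, and Fcer2a of the B cell list and Mzb1 of the plasma cell list were at 0 in mouse 18 and in at least 1 other. The part of these cells in its mitosis values was not tested.

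The acute mice with high mitosis sums differed in these markers. L30A (CORT+ENZA, mitosis sum 55.9 CPM) had a Kupffer cell sum of 375.4 and L17A (ENZA, 43.8 CPM) one of 245.8, against 222.5 to 357.8 in the 20 acute mice other than L30A, L17A, L31A and L29A. L29A (ENZA, 27.6 CPM) had the highest Kupffer cell sum of the acute arm, at 844.1, and all 10 of those markers were highest in it. Its monocyte (79.4 CPM) and T and NK cell (11.5 CPM) sums were also the highest of the acute arm. L31A (vehicle, 31.5 CPM) had a Kupffer cell sum of 355.8, a monocyte sum of 48.2 and the highest acute stellate cell sum, at 325.7. Of these 4 mice, L29A and L30A were above the Kupffer range of the other 20, and L31A and L17A were inside it. The part of these cells in the mitosis values was not tested.

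**Figure D4:**
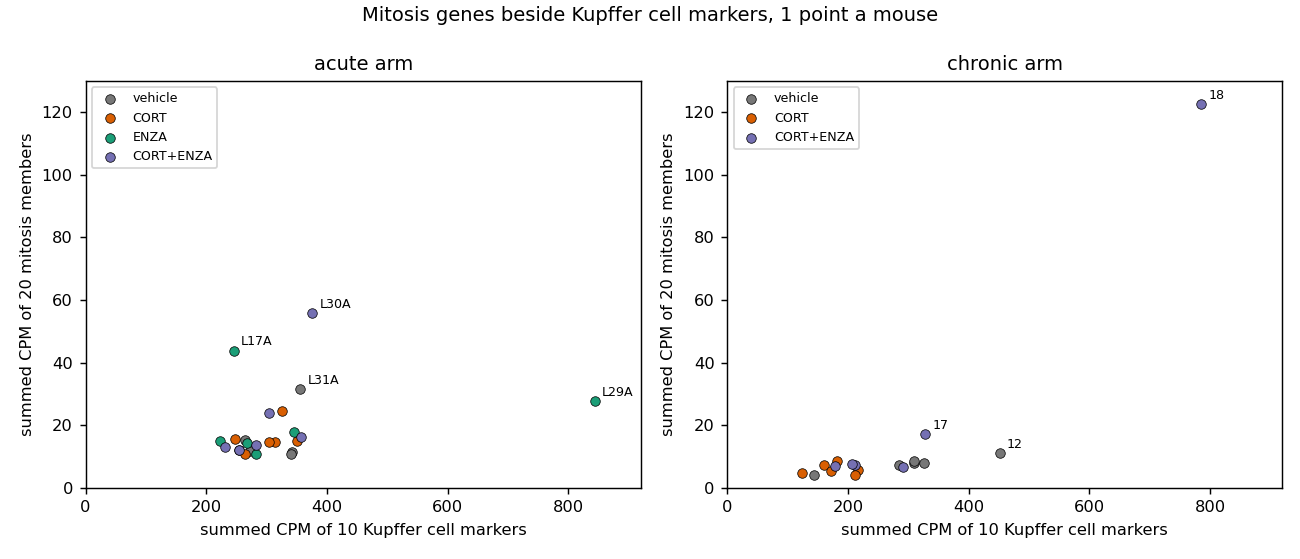
Summed CPM of the 20 mitosis members (y axis) against the summed CPM of 10 Kupffer cell markers (x axis), 1 point a mouse, acute arm left and chronic arm right on the same axes, coloured by treatment. Mouse 18 is high on both axes, L30A has the highest acute mitosis sum, and L29A has the highest acute Kupffer cell sum with a mitosis sum of 27.6 CPM.

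Between mice of a group, the mitosis members varied together more closely than the replication members. After centring log2 CPM on the group means, the median Pearson r over 136 pairs of mitosis members was 0.723 in the 24 acute mice, against 0.161 over 105 pairs of replication members and 0.344 across the sets. These values describe pairs that share libraries and depth. In the 18 chronic mice the medians were 0.815 (21 pairs), 0.227 and 0.531, and without mouse 18 they were 0.210, -0.07 and 0.105. Within the replication members, Mcm5 and Mcm6 followed the mean standardised mitosis level most closely in the acute arm (r = 0.789 for both), and Cdt1 (-0.06), Rrm2 (-0.08) and Ccne1 (0.02) did not follow it. Outside all lists used here, the acute genes most like that mean were Iqgap3 (r = 0.913), Knstrn (0.878), Ckap2 (0.860), Kif22 (0.854), Cdca2 (0.852), Ttc39a (0.850), Ckap2l (0.848) and Arhgef39 (0.841), over 24 mice and 17 mitosis members. In the chronic arm they were Tgm2 (0.952), Cd53 (0.950), Tor3a (0.947), Lgmn (0.939), Tlr1 (0.939), Rac2 (0.930), Ms4a6c (0.929) and Icam1 (0.926), over 18 mice and 7 mitosis members. Without mouse 18 they were Atp6v1a (0.884), Tbc1d1 (0.873), Sptan1 (0.846), Exoc6b (0.824), Zfp984 (0.807), Iqgap1 (0.80), Tmppe (0.80) and Cul7 (0.798), over 17 mice.

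Differences between the arms were tested as differences of effects, each against controls of its own arm, and arm and extraction kit cannot be told apart. For CORT against vehicle, none of the 34 members tested was called by edgeR, against 6.17% of all 14138 genes, with 3 at an unadjusted p under 0.05 (20.5% of all genes). E2f1 came nearest (0.81 ± 0.27, chronic minus acute, adjusted p = 0.0596), then Cdt1 (0.66 ± 0.22, adjusted p = 0.0628) and Tk1 (0.76 ± 0.28, adjusted p = 0.102). Rrm2, whose CORT fold changes were 0.86 and 0.91 in both arms, differed by 0.08 ± 0.29 (adjusted p = 0.914). The differences were 0.43 ± 0.40 for Ccne1, 0.03 ± 0.47 for Ccne2, -0.80 ± 0.44 for Mcm5, -0.07 ± 0.11 for Pcna, -1.20 ± 1.1 for Mki67, -0.81 ± 0.98 for Top2a, -0.83 ± 1.80 for Ccnb1 and 0.46 ± 0.77 for Cdk1, and Mcm2 differed by -0.0035 ± 0.31. For ENZA added to CORT, none of 34 was called by edgeR, against 1.27% of all genes, with 14 at an unadjusted p under 0.05 (13.5% of all genes), of which 10 were mitosis members. The median difference of the 19 mitosis members tested was 2.16 with all mice and 0.12 without mouse 18. Mcm7 (-0.50 ± 0.15, adjusted p = 0.0907), Cdc20 (3.33 ± 1.15, adjusted p = 0.160) and Pcna (-0.30 ± 0.11, adjusted p = 0.195) came nearest. Without mouse 18 the Cdc20 difference was 1.09 ± 0.86. With all mice and without mouse 18 the differences were 2.24 ± 1.03 and 0.37 ± 0.82 for Mki67, 2.16 ± 0.92 and 0.67 ± 0.73 for Top2a, 3.39 ± 1.48 and 0.47 ± 1.17 for Ccnb1 and 0.79 ± 0.72 and -0.51 ± 0.56 for Cdk1. With all mice they were 0.42 ± 0.38 for Ccne1, 0.31 ± 0.45 for Ccne2, -0.15 ± 0.36 for Mcm2, 0.12 ± 0.42 for Mcm5 and -0.46 ± 0.29 for Rrm2. DESeq2 called 1 member, Cdc20, and without mouse 18 edgeR called 1, Mcm7.

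Other genes of the cycle were followed in 4 lists. With acute CORT, Pola2, a subunit of the primase complex, fell (-0.55 ± 0.09, adjusted p = 0.0018) as the 1 gene called of 29 other replication genes tested, and cyclin F (Ccnf) rose (0.72 ± 0.14, adjusted p = 0.0070) as the 1 called of 35 other mitosis genes. Among 22 inhibitors and checkpoint genes, Cdkn1a (p21) rose by 2.65 ± 0.37 (adjusted p = 0.000303). With acute ENZA, 2 inhibitors and checkpoint genes rose, Btg1 (0.55 ± 0.11, adjusted p = 0.0154) and Gadd45b (1.47 ± 0.36, adjusted p = 0.0357), and the replication, mitosis and G1 lists had no call by edgeR, with 2, 2 and 4 genes at an unadjusted p under 0.05, against 14.6% of all genes. In the acute combination against vehicle, Cdkn1a rose (2.19 ± 0.37, adjusted p = 0.0018) and Pola2 (-0.51 ± 0.09, adjusted p = 0.0025) and Cdk6 (-0.36 ± 0.09, adjusted p = 0.0372) fell. Against ENZA alone, Cdkn1a (2.56 ± 0.38, adjusted p = 0.000881) and Ccnf (0.67 ± 0.15, adjusted p = 0.0156) rose and Pola2 (-0.40 ± 0.09, adjusted p = 0.0223) and Btg1 (-0.53 ± 0.12, adjusted p = 0.0147) fell. Against CORT no gene of the 4 lists was called by edgeR, with 3 replication, 3 mitosis, 0 G1 and 6 inhibitor genes at an unadjusted p under 0.05, against 5.07% of all genes. Ccnd1 was not called in any acute comparison, at -0.04 ± 0.29 with CORT, 0.17 ± 0.28 with ENZA, 0.02 ± 0.29 with both, 0.06 ± 0.29 for the combination against CORT, -0.14 ± 0.28 for the combination against ENZA and -0.10 ± 0.40 for the interaction. Cdkn1a was at -0.37 ± 0.40 with ENZA, -0.47 ± 0.33 for the combination against CORT and -0.10 ± 0.52 for the interaction, none of them called.

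With chronic CORT, 1 of 21 genes of the G1 cyclin and E2F list rose and 5 fell. Those that fell were Ccnd1 (cyclin D1), Ccnd2, Cdk4, Myc and Rbl1, and E2f7 rose (1.79 ± 0.50, adjusted p = 0.0171). Ccnd1 read 13.6 to 32.7 CPM in vehicle and 2.57 to 10.1 in CORT mice, without overlap, and fell by 2.03 ± 0.34 on the log2 scale (adjusted p = 0.000563). Of 25 other replication genes 3 rose (Gmnn and Dbf4 among them) and 2 fell (Rfc3 and Pola1), and of 29 other mitosis genes 3 rose (Ccnf, Nek2 and H2afz) and 1 fell (Cks1b). These counts stand beside 18.3% of all genes called. Of 21 inhibitors 1 rose (Gadd45b) and 1 fell (Btg2, -1.90 ± 0.41, adjusted p = 0.0038). Cdkn1a was at 1.24 ± 0.74 (adjusted p = 0.271).

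ENZA added to chronic CORT raised Ccnd1 by 2.53 ± 0.34 (adjusted p = 9.26e-05) and Myc by 2.75 ± 0.36 (adjusted p = 6.92e-05), along with E2f6 and Cdk6, and lowered Cdk2 (-0.57 ± 0.11, adjusted p = 0.0013) and E2f2, in all 4 higher and 2 lower of 21, against 11.8% of all genes called either way. Ccnd1 then read 22.7 to 65.4 CPM, and 31.9 at most without mouse 18. Of 29 other mitosis genes, Spc24, a kinetochore protein, rose by 0.84 ± 0.13 (adjusted p = 0.000247), with Anln and Kif23 also higher and Ccnf, H2afz and Cks2 lower. Anln (0.98, adjusted p = 0.128) and Kif23 (1.2, adjusted p = 0.137) were not called without mouse 18, and neither was Cdc45, which rose in the replication list with all mice (0.87 ± 0.25, adjusted p = 0.0293, and 0.80, adjusted p = 0.0509). None of 21 inhibitors was called by edgeR, with 2 at an unadjusted p under 0.05 (26.5% of all genes). Cdkn1a moved from -0.93 ± 0.73 (adjusted p = 0.460) with all mice to a fall of 2.38 (adjusted p = 0.0186) without mouse 18.

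Against vehicle, the chronic combination called 1 gene higher and 3 lower of 25 other replication genes, 3 and 1 of 29 other mitosis genes, 3 and 3 of 21 G1 cyclin and E2F genes, and 2 and 1 of 21 inhibitors, beside 18.6% of all genes. Spc24 rose by 1.09 ± 0.13 (adjusted p = 8.45e-06), Myc by 1.56 ± 0.34 (adjusted p = 0.0033) and Wee1, the kinase that holds Cdk1 inactive, by 1.84 ± 0.47 (adjusted p = 0.0099). E2f3, E2f6, Gadd45b, Gmnn, Cdca3 and Nek2 were also called higher, and Cdk2, Cdk4, Ccnd2, Btg2, Ccnf, Pola2, Rfc3 and Slbp lower. Cdca3 (0.64, adjusted p = 0.0883) and Nek2 (0.48, adjusted p = 0.121) were not called without mouse 18. Ccnd1 was at 0.50 ± 0.31 (adjusted p = 0.291) and Cdkn1a at 0.31 ± 0.75 (adjusted p = 0.819). Its CORT effect differed between the arms (-1.96 ± 0.45, chronic minus acute, adjusted p = 0.0060), as did its response to added ENZA (2.44 ± 0.45, adjusted p = 0.0013). For Cdkn1a these differences were -1.38 ± 0.83 (adjusted p = 0.355) and -0.52 ± 0.79 (adjusted p = 0.853).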

How the data were processed

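For each arm the authors deposited 1 table of raw counts by gene, made with STAR 2.7.3a and HTSeq 0.12.4 on mm10 (GRCm38), per the submitters' processing notes. The annotation release and strand setting are not stated here. Per the labels' protocols, acute RNA was extracted with a Qiagen kit and chronic RNA with a Macherey-Nagel NucleoSpin kit, and stranded mRNA libraries were sequenced.

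Symbols matched 55394 of 55573 identifiers, and coordinates came from GENCODE M21 on the same build. Counts were fitted in R 4.3.3 with edgeR 4.0.16 (filterByExpr with minimum count 10 and minimum total 15, TMM, robust quasi-likelihood), with 1 mean per group and every library of the arm in the fit. This left 13733 acute and 13099 chronic genes, and 14138 in the model of both arms. Calls were made at a Benjamini-Hochberg adjusted p of 0.05 over all genes. The test was checked on simulated data. Alternatives were DESeq2 1.42.0, limma-voom 3.58.1 with quality weights, RLE factors, no filter, CPM of 1 in 6 libraries, only the groups compared, 1 library left out in turn, sets of consecutive acute mouse numbers, and the fit without vehicle L19A and CORT+ENZA L36A.

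The members, lists and tests were chosen with earlier results of these data known. Named are all members called, or the 3 with the smallest p where fewer are called, always Mki67, Top2a, Ccnb1, Cdk1, Mcm2, Mcm5, Pcna, Ccne1, Ccne2, Rrm2, Cdkn1a and Ccnd1 where tested, and from each other list at most 6 called genes with the smallest p. Some results for genes of the other lists are not reported here.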

Additional observations from a re-analysis of the deposited data

Results flagged for a closer look

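The sums and 19 members were examined in each of the 7 groups of 6 mice, 147 groups in all. The 19 were the members called by edgeR with all mice or without mouse 18, and those always named. Other members with values in the report, such as Cdc20, Tk1, Cdt1 and Mcm4, were not examined. In 38 of the 147 groups the highest mouse lay apart from the other 5 by a gap that was large for the range of the group. The cut would mark about 1 in 20 groups if the values were normally distributed. Many of these values are low counts, for which that rate need not hold, so the 38 are not set against it. Values of members that vary together are not separate cases.

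Chronic CORT+ENZA mouse 18 accounted for 14 of the 38. Its mitosis sum was 122.5 CPM (next mouse 17.2) and its replication sum 137.7 CPM (next 104.5). Among mitosis members it read 14.1 CPM for Mki67 (next 1.79), 10.8 for Top2a (next 1.84), 6.57 for Ccnb1 (next 0.461) and 9.53 for Cdk1 (next 1.33). It read 5.81 for Birc5 (next 1.54), 4.93 for Aurka (next 0.871) and 9.48 for Kif20a (next 1.28). Among the helicase genes it read 6.19 CPM for Mcm2 (next 2.87), 5.64 for Mcm3 (next 2.97), 5.81 for Mcm5 (next 1.64), 9.97 for Mcm6 (next 3.15) and 14.4 for Mcm7 (next 10.9).

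Acute CORT+ENZA mouse L30A stood apart in the mitosis sum (55.9 CPM, next 24) and in E2f1 (5.07, next 3.55), Mcm5 (5.71, next 3.14), Mcm6 (13.3, next 5.50), Mki67 (7.64, next 2.13), Top2a (4.75, next 1.14) and Aurka (2.72, next 0.933). Vehicle mouse L31A did so in the mitosis sum (31.5 CPM, next 15.2) and in Mcm2 (5.90, next 3.92), Mcm5 (3.18, next 2.06), Mcm6 (5.90, next 3.66), Mki67 (5.20, next 1.72), Top2a (2.47, next 0.773) and Ccnb1 (1.26, next 0.258). CORT mouse L14A did so in the mitosis sum (24.6 CPM, next 15.7), Top2a (1.84, next 0.952) and Kif20a (2.32, next 1.15), and ENZA mouse L17A in Ccnb1 (1.70, next 0.462) and Kif20a (3.25, next 1.34).

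The other cases were single values of chronic mice. CORT mouse 2 was high in Mcm3 (3.36 CPM, next 2.44) and CORT mouse 25 in Mcm6 (3.05, next 2.36). Vehicle mouse 11 was high in Pcna (29.2, next 25.0), vehicle mouse 12 in Ccnb1 (0.357, next 0.115) and vehicle mouse 13 in Aurka (0.687, next 0.372).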

How the results depend on the processing

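Of the members called in a comparison, or with the 3 smallest p where fewer were called, no fold change changed sign under the alternatives run. Some other members did without mouse 18, such as Cdk1 in the chronic combination against CORT and Mki67 in that against vehicle. In the acute arm DESeq2 called 1 member with CORT (Rrm2), 2 with ENZA and 1 with the combination against vehicle, where limma-voom also called 1 (Birc5), in place of 0 by edgeR. The call of Mcm5 in the acute combination against CORT went from 1 to 0 in the fit of only the groups compared and with a term for runs of consecutive mouse numbers. With 1 acute library left out, members called ranged from 0 to 1 with CORT, 0 to 2 with ENZA, and 0 to 1 with the combination against vehicle and against CORT. For chronic CORT, DESeq2 called 2, limma-voom 5 and the fit of only the groups compared 7, against 1 as reported, and leaving out 1 library gave 1 to 5. For the chronic combination against CORT, limma-voom called 2, no filter 1, the fit of only the groups compared 1 and the stricter filter 3, against 5. The alternatives that kept every library of the groups compared ranged from 1 to 7, and leaving out 1 library gave 1 to 6. Against vehicle the fit of only the groups compared called 3 against 6. The alternatives that kept every library of the groups compared ranged from 3 to 8, and leaving out 1 library gave 2 to 8. Between the arms, limma-voom called 1 member for CORT (Tk1), and DESeq2 and limma-voom 1 each for added ENZA (Cdc20 and Mcm7), against 0, with 0 to 2 and 0 to 1 when 1 library was left out. The cause of these changes was not tested.

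The calls for chronic CORT without mouse 18 and with only the groups compared, given in the report with their own backgrounds, were chosen after seeing the data. Counts over all genes also moved. DESeq2 and limma-voom called 432 and 356 genes with acute CORT against 222 by edgeR, and the fit of only the groups compared 96. With acute ENZA these were 388, 308 and 94 against 180 (90 with no filter), and with the acute combination against vehicle 584, 674 and 203 against 339. Low counts limit the mitosis members most. In the chronic arm 14 of the 20 were low and 7 passed the filter, at 15381724 to 19581723 gene counts a library. In the acute arm 17 of the 20 passed, at 18674151 to 20464521 gene counts. The part of depth in this was not tested. The labels repeat no mouse number between groups and do not call the acute sets of consecutive numbers a batch. With those sets as a block, the acute combination against CORT lost its 1 call and the other 5 acute comparisons stayed at 0. The chronic numbers form no such sets, because they come in runs within a group. CORT mice were 1, 2, 3, 25, 26 and 27, and CORT+ENZA mice were 4, 5, 6, 16, 17 and 18. Vehicle mice were 10, 11, 12, 13, 14 and 15. A block with a mouse of every group could thus not be fitted, and the chronic fits took the mice of a group as independent. The E2f1 split between CORT+ENZA mice 4, 5 and 6 and mice 16, 17 and 18 follows the runs. The part of the runs in the chronic results was not tested.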

Other observations

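Mitosis genes outside the 36 members were high in the same mice. Of 48 other mitosis genes, 37 were highest in mouse 18 among the 18 chronic mice, and 28 were highest in L30A among the 24 acute mice. Of 32 other replication genes the counts were 12 and 11, of 21 G1 cyclin and E2F genes 3 and 2, and of 24 inhibitors and checkpoint genes 4 and 3. Summed, the other mitosis genes read 315.2 CPM in mouse 18 against 181.1 to 230.6 in the other 17 chronic mice, and the other replication genes read 189.5 against 175.4 to 273.1. In L30A the other mitosis genes summed to 218.4 CPM against 153.7 to 201.0 in the other 23 acute mice.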
